A study of Mus musculus with 6 samples.

Results

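The collagen chains are the genes whose symbol has the form Col, number, a, number, and 44 of the 25683 genes in the deposited table met that rule. They were grouped by the class of molecule they build: 11 fibrillar chains, 9 network-forming chains, 6 chains of the beaded filaments of collagen VI, 9 FACIT chains (fibril-associated collagens with interrupted triple helices), 4 transmembrane chains, 2 multiplexins and 3 others. Cells cultured from mouse aorta, given in the labels as primary vascular smooth muscle cells, yielded 6 libraries of poly(A)-selected RNA. Libraries 1 to 3 came from cells labelled Nt5e Knock-out and libraries 4 to 6 from cells labelled Nt5e-WT (wild type). Nt5e encodes CD73, the surface enzyme that makes adenosine from AMP. Both genotypes had been grown at 10% FBS and then held in differentiation medium with 0.5% FBS for 48 h before RNA was extracted. The labels give no strain, age, sex or promoter for the knock-out, and do not say whether libraries of a genotype were grown apart. The p-values below therefore reflect no more than the spread between these 6 libraries, which may be technical.

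Collagens are assembled from chains that wind round each other along a repeated glycine-containing sequence. Fibrillar collagens give the arterial media and adventitia their tensile strength, with types I and III in bulk and type V in small amounts at the core of the fibril. Type IV forms the sheet of the basement membrane, type VI forms beaded filaments around cells, type VIII forms networks in vessel walls, and FACIT collagens coat the surface of fibrils. Chains are modified and folded in the endoplasmic reticulum, trimmed outside the cell, cross-linked by lysyl oxidases, and bound by integrins and discoidin domain receptors.

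Depth was 19919095 to 23669252 exon reads per library. The level of Nt5e, checked for the genotype labels, was 0.952, 0.0471 and 0.106 CPM (counts scaled to the TMM-adjusted library size) in libraries 1, 2 and 3 of the knock-out, against 27.4, 28.3 and 22.5 CPM in wild-type libraries 4, 5 and 6. Knock-out library 1 stood apart from the other libraries of its genotype. Over the tested collagen chains the median size of the log2 difference was 0.81 for knock-out library 1 against 2 and 0.91 for 1 against 3, but 0.14 for 2 against 3. Over all tested genes knock-out libraries 2 and 3 and wild-type libraries 4 and 6 were near-identical pairs. Their median chi-square per gene was 0.889 and 0.961, against 0.455 for counting noise alone, and 18.02 and 17.24 for library 1 against 2 and 3. Over the tested chains alone the pairs stood further above counting noise, at 2.84 and 5.36, against 657 and 752 for library 1 against 2 and 3. The labels' titles give libraries 1 and 2 the same stem and library 3 another. They put library 1 and wild-type library 5 under a last number of 1 and the other 4 libraries under 2. Libraries 1, 4 and 5 share a number after p, and libraries 2, 3 and 6 share the other. Within the knock-out both numbers separate library 1 from libraries 2 and 3. Fits with either as a covariate therefore cannot tell the title number from that gap.

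The cell-type label was checked against marker genes, as deposited RPKM (reads scaled by exon length and depth). The 8 smooth muscle markers summed to 62.2, 259 and 249 RPKM in the knock-out libraries, against 56.9, 47.3 and 76.0 RPKM in the wild type, and among them Des stood at or under 0.130 CPM and Myocd at or under 0.173 CPM in each library. Most of the smooth muscle sum in libraries 2 and 3 was Acta2, at 32.0, 218 and 210 RPKM in the knock-out, against 30.2, 22.4 and 44.1 RPKM in the wild type, while Cnn1 was lowest in libraries 2 and 3. The 8 fibroblast markers summed to 174, 366 and 375 RPKM in the knock-out, against 96.5, 142 and 97.1 RPKM in the wild type, but did not move as 1 group. Dpt made up most of that sum in libraries 2 and 3, at 5.12, 277 and 282 RPKM in the knock-out, against 6.12, 28.9 and 6.62 RPKM in the wild type. Cd34 ran the other way, at 70.2, 8.74 and 9.74 RPKM in the knock-out, against 33.8, 38.0 and 33.3 RPKM in the wild type, and Ly6a and Mfap5 were likewise highest in library 1 and lowest in libraries 2 and 3. The 8 mesothelial markers summed to 48.9, 19.7 and 17.9 RPKM in the knock-out, against 934, 912 and 965 RPKM in the wild type. Msln, Krt19, Lrrn4 and Upk3b made up most of the wild-type sum. Each was lower in the 3 knock-out libraries but kept reads there. Krt8 and Krt18 were at 0 in the 3 knock-out libraries, but reached only 0.338 and 0.278 RPKM at most in the wild type. The endothelial list summed to at most 1.00 RPKM, with Tie1 at 0. Leukocyte markers summed to 4.49, 10.4 and 8.61 RPKM in the knock-out, against 4.78, 3.18 and 3.15 RPKM in the wild type, but did not move as 1 group. Lyz2 was higher, at 3.82, 9.72 and 8.13 RPKM in the knock-out, against 1.95, 0.858 and 1.11 RPKM in the wild type. Cd68 was lower, at 0.623, 0.362 and 0.297 RPKM in the knock-out, against 2.65, 2.20 and 1.98 RPKM in the wild type. Ptprc of leukocytes, Sox10 of Schwann cells and Acan and Matn1 of cartilage were at 0 in each of the 6 libraries. The part of these marker differences in the collagen values was not tested, and in such bulk samples fewer cells of a type and less RNA per cell cannot be told apart.

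Of the 44 chains, 34 held enough reads to be tested, and 3 (Col9a1, Col13a1 and Col26a1) had no reads in any library. Passing the test were 4 chains higher and 9 chains lower in the knock-out (quasi-likelihood test of edgeR, Benjamini-Hochberg adjustment over 12660 genes at 0.05). The 13 calls were 38.2% of the tested chains, while over all tested genes 27.8% were called, 14.1% higher and 13.7% lower. The chains called higher were Col5a1 and Col11a1 of the fibrillar class, Col6a3 of collagen VI and Col15a1, a multiplexin. The chains called lower were Col24a1 and Col27a1 (fibrillar), Col4a3 and Col8a1 (network), Col6a4, Col6a5 and Col6a6 (beaded filament), Col12a1 (FACIT) and Col7a1. Of these, Col24a1, Col6a4, Col6a5 and Col6a6 passed the read filter through the wild type alone, and could hardly come out other than lower. The genotypes did not overlap for 20 of the 34 chains, 7 higher and 13 lower in the knock-out, and for 49.7% of all tested genes. The median log2 fold change of the 34 chains was -0.06, beside 0.02 over all tested genes. With each near-identical pair summed to 1 sample, which left 2 samples per genotype, edgeR called 0 chains and 0.13% of all tested genes. At an unadjusted p under 0.05, 2 chains were higher and 8 lower in that fit, a count not made over all genes. DESeq2 on the 6 libraries called 8 chains higher and 11 lower, beside 36.8% of all tested genes called.

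**Figure D1:**
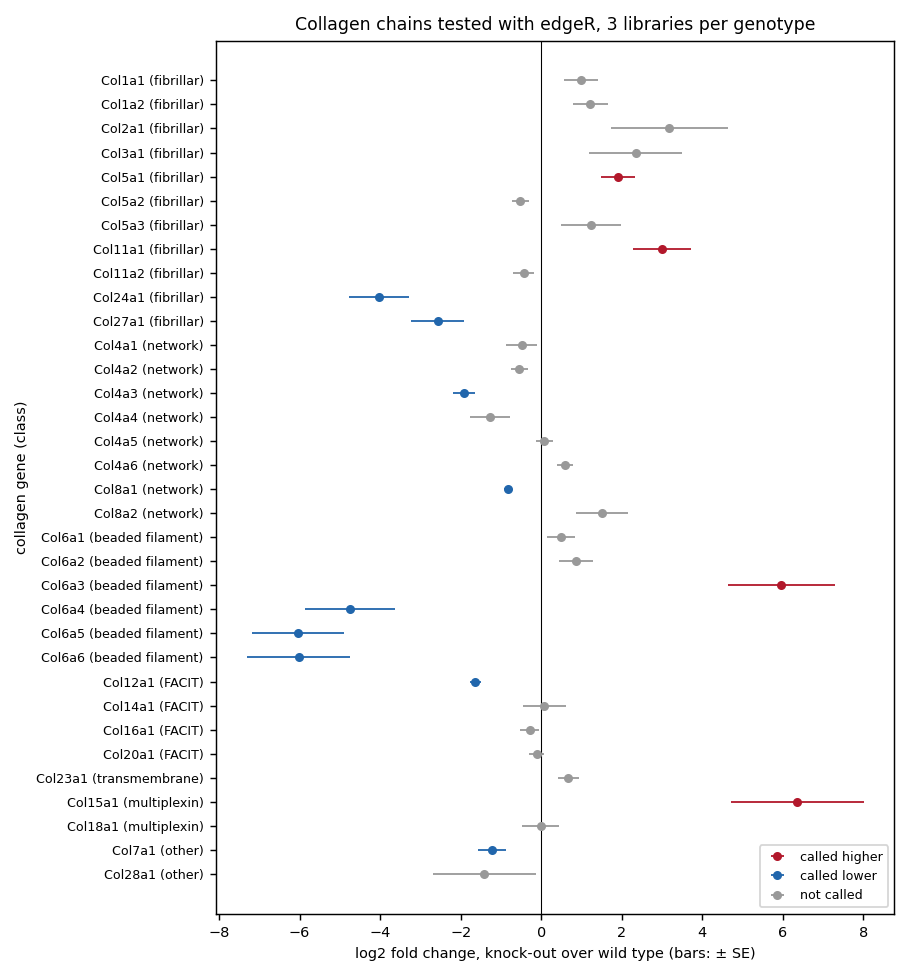
Log2 fold change of each tested collagen chain, knock-out over wild type, with its standard error (horizontal axis), against the gene and its class (vertical axis). The 34 chains run between -6.04 for Col6a5 and 6.36 for Col15a1, and coloured points mark the 4 called higher and the 9 called lower.

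As a share of exon reads the 44 chains took 0.646%, 1.94% and 2.16% in knock-out libraries 1, 2 and 3, against 0.983%, 1.00% and 1.03% in wild-type libraries 4, 5 and 6. Library 1 thus lay below the wild-type range and libraries 2 and 3 above it. Summed RPKM put the chains at 1067, 3182 and 3549 in the knock-out, against 1591, 1606 and 1660 in the wild type. The fibrillar chains made up 43.1%, 65.6% and 66.9% of that sum in the knock-out, against 41.0%, 42.7% and 41.2% in the wild type. The network chains made up 25.4%, 12.4% and 11.4% in the knock-out, against 29.9%, 31.0% and 29.4% in the wild type. Among the wild-type libraries the class shares stayed within a narrow range, and knock-out library 1 was nearer to them than libraries 2 and 3 were, for both classes.

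**Figure D2:**
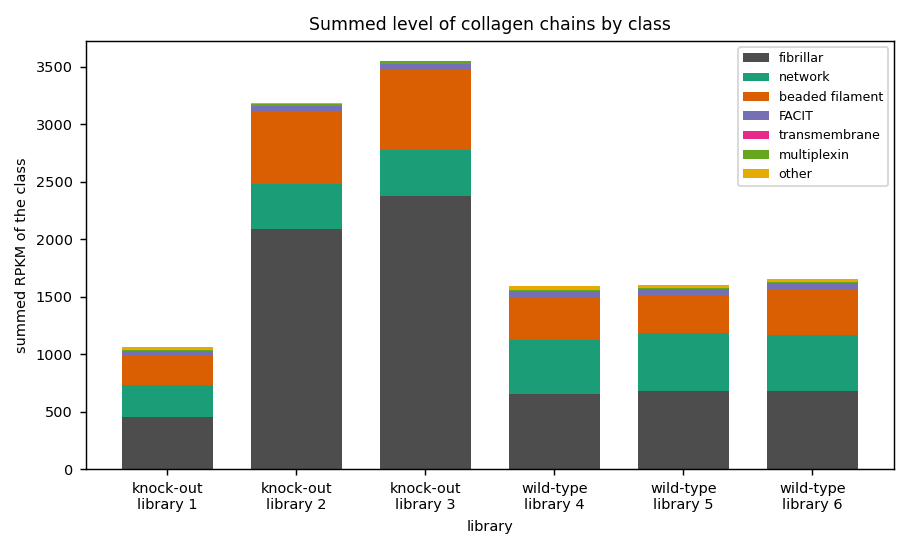
Summed RPKM of the collagen chains by class (stacked bars, vertical axis) in each library (horizontal axis), knock-out libraries on the left. The total is 1067 in knock-out library 1 and 3182 and 3549 in knock-out libraries 2 and 3, against 1591 to 1660 in the wild type, and in libraries 2 and 3 most of the gap to the wild type lies in the fibrillar chains.

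The chain with the highest mean in the knock-out was Col3a1, at 721 ± 606 RPKM, against 154 ± 23.2 RPKM in the wild type (mean ± SD, n = 3 each), where it stood behind Col6a1 and Col1a2. Col6a1 averaged 341 ± 135 RPKM in the knock-out, against 260 ± 20.8 RPKM in the wild type, and Col1a2 521 ± 255 RPKM in the knock-out, against 240 ± 12.96 RPKM in the wild type. In the knock-out the order ran Col3a1, Col1a2, Col6a1, Col1a1 and Col6a2, and neighbours in it differed by less than the larger of their SDs. In the wild type the same held for Col6a1 and Col1a2. In all, 24 chains averaged at least 1 RPKM in the knock-out and 20 in the wild type.

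**Figure D3:**
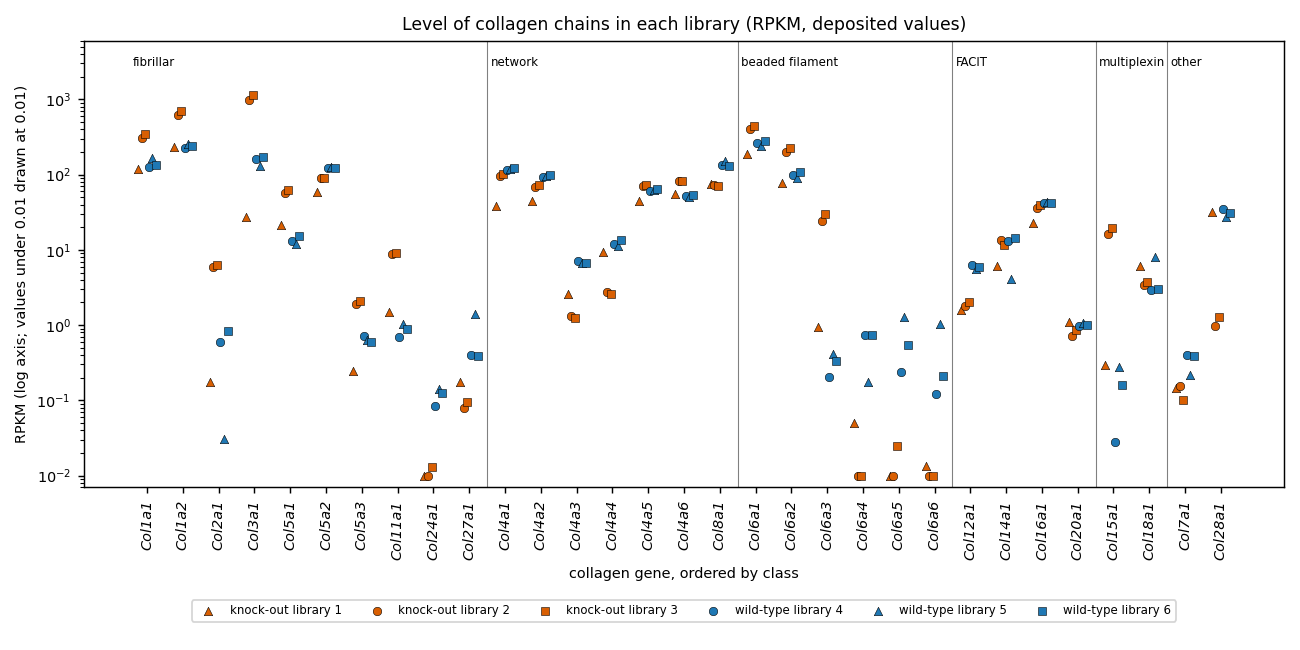
Deposited RPKM (vertical axis, log scale) in each library for the 31 collagen chains that averaged at least 1 RPKM in a genotype or were called, ordered by class (horizontal axis). Triangles of the knock-out colour (library 1) lie away from libraries 2 and 3 for Col3a1, Col2a1, Col6a3, Col15a1 and Col28a1.

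Among the fibrillar chains, 2 were called higher and 2 lower of 11 tested, or 36.4%, beside 27.8% of all tested genes. The promoters of Col3a1, Col6a3 and Col15a1, which stood 42.1, 31.5 and 66.2 times as high in knock-out libraries 2 and 3 as in library 1, are shown with that of Col1a2, the second chain of type I, because all 4 chains were higher in libraries 2 and 3 than in library 1. Each window runs 5′ to 3′ from 250 bases before to 50 bases after the RefSeq start (GRCm38.p6). Capitals mark a CCAAT box (CCAAT), a GC box (GGGCGG) or a TATA box (TATAAA) on either strand, and no marked motifs overlap. The windows are chr6:4505368-4505667 (Col1a2, plus strand), chr1:45311288-45311587 (Col3a1, plus strand), chr1:90843922-90844221 (Col6a3, minus strand) and chr4:47207762-47208061 (Col15a1, plus strand). For Col1a2 and Col15a1 the RefSeq start is not the gene start of the deposited table.
Col1a2: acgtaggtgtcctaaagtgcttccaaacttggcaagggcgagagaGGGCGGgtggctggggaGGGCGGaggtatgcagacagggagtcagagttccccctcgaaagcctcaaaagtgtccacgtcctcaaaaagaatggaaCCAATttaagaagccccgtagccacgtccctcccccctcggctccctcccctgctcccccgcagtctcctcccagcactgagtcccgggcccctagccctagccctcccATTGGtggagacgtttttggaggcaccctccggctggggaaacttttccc
Col3a1: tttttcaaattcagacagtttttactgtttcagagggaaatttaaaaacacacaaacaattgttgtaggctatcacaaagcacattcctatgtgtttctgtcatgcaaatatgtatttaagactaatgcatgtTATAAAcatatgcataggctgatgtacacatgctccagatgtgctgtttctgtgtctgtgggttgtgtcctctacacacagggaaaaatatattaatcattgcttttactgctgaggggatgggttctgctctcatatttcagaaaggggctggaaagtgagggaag
Col6a3: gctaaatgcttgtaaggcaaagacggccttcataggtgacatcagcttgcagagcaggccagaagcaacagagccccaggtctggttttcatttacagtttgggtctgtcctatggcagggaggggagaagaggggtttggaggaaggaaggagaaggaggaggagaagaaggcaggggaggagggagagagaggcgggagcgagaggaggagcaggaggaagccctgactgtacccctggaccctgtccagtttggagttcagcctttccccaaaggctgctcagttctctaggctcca
Col15a1: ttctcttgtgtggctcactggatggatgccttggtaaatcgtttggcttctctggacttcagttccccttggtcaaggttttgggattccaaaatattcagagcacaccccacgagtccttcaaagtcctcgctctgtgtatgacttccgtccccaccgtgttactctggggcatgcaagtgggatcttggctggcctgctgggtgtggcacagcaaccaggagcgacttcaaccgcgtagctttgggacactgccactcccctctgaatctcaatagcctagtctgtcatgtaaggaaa
The Col1a2 window held 2 GC boxes, at positions 46 and 63, and 2 CCAAT boxes, at positions 142 and 251, while Col3a1 held 1 TATA box, at position 134. The Col6a3 and Col15a1 windows held none of the 3 motifs, which says nothing about the factors themselves. Positions count from the 5′ end of a window. Of all 32851 RefSeq promoter windows, 37.4% held a CCAAT box, 35.7% a GC box and 13.6% a TATA box, and of 38 windows for 35 collagen chains 13, 23 and 5 held them.

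Col5a1, a chain of the type V collagen at the core of fibrils, had 195, 555 and 613 CPM in libraries 1, 2 and 3 of the knock-out, against 118, 108 and 137 CPM in wild-type libraries 4, 5 and 6. Each knock-out library was above each wild-type library, and libraries 2 and 3 lay well above library 1. The log2 fold change was 1.91 ± 0.43 (SE; edgeR adjusted p = 0.0244). Col11a1, a related chain of type XI collagen best known from cartilage, stood at 12.3, 80.3 and 82.7 CPM in the knock-out, against 5.71, 8.72 and 7.41 CPM in the wild type. The same order held, with library 1 nearest to the wild type, and the log2 fold change was 3.00 ± 0.72 (edgeR adjusted p = 0.0292). With any library but knock-out library 1 left out, neither chain passed: the adjusted p was 0.0725 to 0.0984 for Col5a1 and 0.0835 to 0.116 for Col11a1. With the title number after p as a covariate Col11a1 stood at 2.11 on the log2 scale (adjusted p = 0.0895). Beside Col11a1, the 4 cartilage markers summed to 5.39, 10.5 and 11.1 RPKM in the knock-out, against 2.67, 2.96 and 2.86 RPKM in the wild type, carried by Sox9, and their part was not tested.

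Col5a2, the partner of Col5a1 in the type V molecule, stood at 405, 686 and 685 CPM in the knock-out, against 834, 871 and 849 CPM in the wild type. It was lower in each knock-out library but did not pass the test (log2 fold change -0.52 ± 0.21, edgeR adjusted p = 0.118). The ratio of Col5a1 to Col5a2 RPKM was 0.372, 0.626 and 0.693 in the knock-out, against 0.110, 0.0958 and 0.125 in the wild type. Col5a3, the chain found in fewer tissues, stood at 1.56, 13.2 and 14.7 CPM in the knock-out, against 4.64, 4.15 and 3.75 CPM in the wild type (edgeR adjusted p = 0.259; log2 fold change 0.27 with the title number after p as a covariate). Library 1 lay below the wild type for Col5a3 and libraries 2 and 3 above it.

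The type I and type III chains, the bulk of arterial fibrils, did not pass the test over 3 against 3 libraries. Col1a1 stood at 747, 2090 and 2333 CPM in the knock-out, against 775, 1027 and 820 CPM in the wild type (log2 fold change 0.98 ± 0.42, edgeR adjusted p = 0.134). Its partner Col1a2 stood at 1336, 3951 and 4439 CPM in the knock-out, against 1320, 1484 and 1369 CPM in the wild type (1.22 ± 0.43, edgeR adjusted p = 0.0853). Libraries 2 and 3 were 2.53 times the wild-type mean for Col1a1 and 3.02 times for Col1a2, while library 1 was at 85.4% and 96.0% of it. Col3a1 stood at 161, 6244 and 7291 CPM in the knock-out, against 939, 754 and 1005 CPM in the wild type (2.34 ± 1.16, edgeR adjusted p = 0.178). Library 1 held the lowest Col3a1 level of the 6 libraries, and libraries 2 and 3, the 2 highest, were 42.1 times library 1. Without knock-out library 1 the 3 chains passed, at log2 fold changes of 1.33, 1.58 and 2.91 (edgeR adjusted p = 1.60e-04, 8.38e-06 and 7.83e-06), in a comparison that rests on a near-identical pair. With the title number after p as a covariate the log2 fold changes of Col1a1, Col1a2 and Col3a1 were 0.58, 0.77 and 0.18 (edgeR adjusted p = 0.377, 0.238 and 0.948). With the last title number they were 0.85, 1.06 and 1.48 (0.182, 0.0974 and 0.406). Within the knock-out either covariate separates library 1 from libraries 2 and 3. Wild-type library 6 shares its number after p with libraries 2 and 3. It was at 1005 CPM for Col3a1, against 939 and 754 CPM in the other wild-type libraries. Among the smooth muscle markers, Acta2, Tagln, Myh11, Smtn and Lmod1 were also higher in libraries 2 and 3 than in the other 4 libraries. Cnn1 was lower there, and Des and Myocd, with few reads, did neither. Of the fibroblast markers, Pdgfra, Dpt, Lum and Pi16 were higher there, while Cd34, Ly6a, Mfap5 and Tcf21 were lower. Their part was not tested.

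Reads across exon junctions followed the same pattern, with 2947, 105556 and 110175 for Col3a1 in the knock-out, against 17090, 14763 and 17536 in the wild type. The gene ends 24.6 kb from the end of Col5a2, which lies on the opposite strand of chromosome 1. RPKM of Col3a1 over Col5a2 was 0.473, 10.8 and 12.7 in the knock-out, against 1.34, 1.03 and 1.41 in the wild type. Library 1 was the lowest of the 6 libraries for both neighbours, and libraries 2 and 3 were 42.1 times library 1 for Col3a1 and 1.69 times for Col5a2. Col3a1 over Col1a1 was 0.230, 3.18 and 3.33 in the knock-out, against 1.29, 0.782 and 1.31 in the wild type.

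Col2a1, the main fibrillar chain of cartilage, stood at 0.952, 33.9 and 36.3 CPM in the knock-out, against 3.21, 0.164 and 4.49 CPM in the wild type (log2 fold change 3.18 ± 1.45, edgeR adjusted p = 0.151). Wild-type library 5 was far below libraries 4 and 6 for this gene, and knock-out library 1 lay within the wild-type range. Without knock-out library 1 the log2 fold change was 3.76 (edgeR adjusted p = 0.00292). It also passed with the last title number as a covariate (3.10, adjusted p = 0.00141), but not with the title number after p (1.33, adjusted p = 0.549). Col11a2, the other low type XI chain, stood at 1.69 to 2.55 CPM in the knock-out, against 2.50 to 3.43 CPM in the wild type.

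Col24a1 and Col27a1, minor fibrillar chains of developing bone and cartilage, were called lower from few reads. Col24a1 passed the read filter through the wild type alone, so within the tested set it could hardly come out other than lower. Col24a1 had 1, 0 and 2 reads in the knock-out, against 14, 26 and 20 in the wild type, a ratio of 18.5-fold lower at equal depth (exact 95% interval for counting error only 6.02 to 92.1; edgeR adjusted p = 0.0142). Col27a1 had 34, 15 and 16 reads in the knock-out, against 75, 283 and 69 in the wild type, or 1.47, 0.707 and 0.851 CPM against 3.34, 11.6 and 3.196 CPM. Wild-type library 5 was the highest for both chains, and the genotypes did not overlap. The log2 fold change of Col27a1 was -2.57 ± 0.65 (edgeR adjusted p = 0.0336) and became -1.69 (adjusted p = 0.0626) without wild-type library 5. The Col24a1 call was lost with any wild-type library left out (adjusted p 0.0562 to 0.0635), and its value moved to -4.97 without knock-out library 3. The Col27a1 call was lost with any library but knock-out library 1 left out (0.0584 to 0.113).

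Of the 9 network-forming chains, 8 were tested, with 0 called higher and 2 lower, or 25%, beside 27.8% of all tested genes. At an unadjusted p under 0.05 stood 5 of the 8, beside 5340 of all 12660 tested genes. DESeq2, which called 36.8% of all tested genes, also called Col4a6 higher and Col4a2 and Col4a4 lower. Genes of type IV collagen lie in head-to-head pairs that start next to each other and run apart, so each pair can share a promoter. Col4a1 and Col4a2, which build the common basement membrane network, overlapped by 22 bases on chromosome 8. Col4a4 and Col4a3, chains of the specialised network known from kidney glomeruli, were 71 bases apart on chromosome 1, and Col4a6 and Col4a5, the chains of a network found in smooth muscle basement membranes, were 1.31 kb apart on chromosome X. The windows of Col4a1 (chr8:11312777-11313076, minus strand) and Col4a4 (chr1:82586800-82587099, minus strand) are printed because each also holds the start of its partner, on the other strand. Capitals mark the same motifs as above.
Col4a1: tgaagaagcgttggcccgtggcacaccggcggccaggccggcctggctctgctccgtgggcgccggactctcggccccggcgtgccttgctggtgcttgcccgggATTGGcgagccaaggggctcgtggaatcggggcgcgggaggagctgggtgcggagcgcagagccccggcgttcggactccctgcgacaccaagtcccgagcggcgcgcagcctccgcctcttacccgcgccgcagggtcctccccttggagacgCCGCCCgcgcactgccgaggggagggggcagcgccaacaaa
Col4a4: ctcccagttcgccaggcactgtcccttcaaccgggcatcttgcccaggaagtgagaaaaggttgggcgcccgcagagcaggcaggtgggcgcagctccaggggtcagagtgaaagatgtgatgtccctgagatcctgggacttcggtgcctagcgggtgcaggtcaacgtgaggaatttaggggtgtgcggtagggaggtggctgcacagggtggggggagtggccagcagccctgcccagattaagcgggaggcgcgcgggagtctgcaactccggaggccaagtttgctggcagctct
Col4a2 began at position 272 of the Col4a1 window, and Col4a3 at position 179 of the Col4a4 window. The Col4a1 window held 1 CCAAT box, at position 106, and 1 GC box, at position 260, each on the other strand, and the Col4a4 window held none of the 3 motifs.

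Col4a3 was called lower, at 23.2, 12.9 and 12.1 CPM in the knock-out, against 62.6, 59.5 and 60.4 CPM in the wild type (log2 fold change -1.92 ± 0.26, edgeR adjusted p = 0.00604). Its neighbour Col4a4 stood at 99.3, 31.5 and 29.4 CPM in the knock-out, against 126, 119 and 142 CPM in the wild type (-1.27 ± 0.50, edgeR adjusted p = 0.108). Each knock-out library was below each wild-type library for both genes, and library 1 lay nearest to the wild type for both. The ratio of Col4a3 to Col4a4 RPKM was 0.276, 0.483 and 0.487 in the knock-out, against 0.587, 0.590 and 0.504 in the wild type. The Col4a3 call held whichever library was left out (highest adjusted p 0.0361), and Col4a4 passed without knock-out library 1 (-2.09, adjusted p = 6.92e-06) and with the last title number as a covariate (-1.52, adjusted p = 0.0448). The summed mesothelial markers, given above, were also lower in the 3 knock-out libraries than in the wild type, and their part was not tested.

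Col4a1 stood at 268, 738 and 769 CPM in the knock-out, against 813, 825 and 843 CPM in the wild type (log2 fold change -0.48 ± 0.39, edgeR adjusted p = 0.381). Col4a2 stood at 306, 505 and 533 CPM in the knock-out, against 631, 659 and 666 CPM in the wild type (-0.54 ± 0.21, edgeR adjusted p = 0.110). Both were below the wild-type range in each knock-out library and lowest in library 1. With the title number after p as a covariate Col4a2 passed (-0.72, adjusted p = 0.0452). Their RPKM ratio was 0.848, 1.415 and 1.397 in the knock-out, against 1.25, 1.21 and 1.22 in the wild type, with library 1 below the wild-type range of this ratio and libraries 2 and 3 above it.

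Col4a6 stood at 387, 630 and 631 CPM in the knock-out, against 364, 351 and 375 CPM in the wild type (log2 fold change 0.60 ± 0.20, edgeR adjusted p = 0.0737). Col4a5 stood at 308, 517 and 533 CPM in the knock-out, against 418, 433 and 441 CPM in the wild type (0.07 ± 0.21, edgeR adjusted p = 0.823). Library 1 was below the wild type for Col4a5 and just above it for Col4a6. With the last title number as a covariate Col4a6 passed (0.56, adjusted p = 0.0390). Their ratio, Col4a6 over Col4a5 in RPKM, was 1.23, 1.20 and 1.16 in the knock-out, against 0.856, 0.797 and 0.836 in the wild type. This ratio varied little within each genotype, library 1 included, and did not overlap between them, as was so for most of the chain pairs compared.

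**Figure D4:**
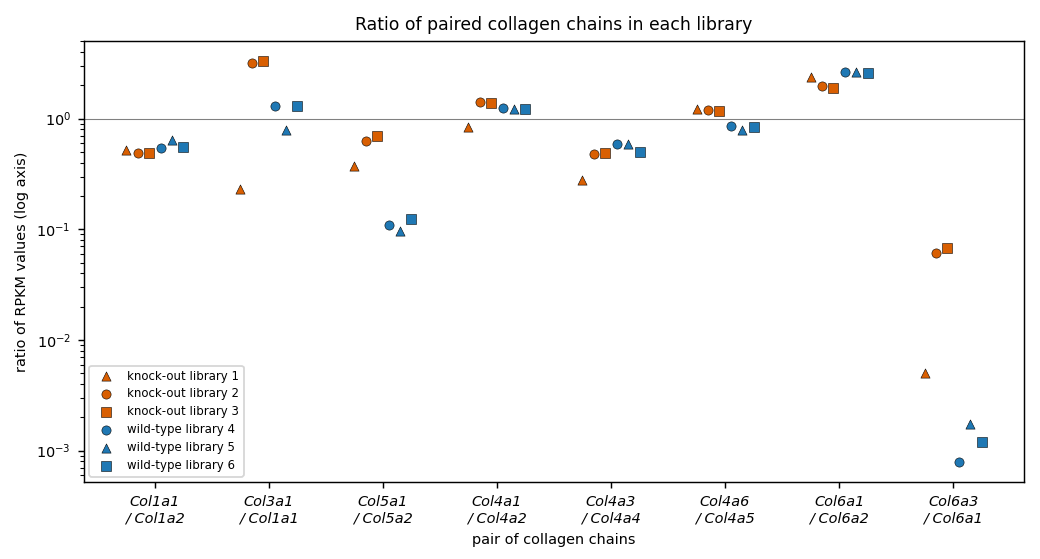
Ratio of RPKM values (vertical axis, log scale) for 8 pairs of collagen chains (horizontal axis), 1 point per library, knock-out to the left of wild type in each pair. Col5a1 over Col5a2, Col4a6 over Col4a5 and Col6a3 over Col6a1 are higher in the 3 knock-out libraries. Col1a1 over Col1a2, Col4a3 over Col4a4 and Col6a1 over Col6a2 are lower in them. Col3a1 over Col1a1 spreads between 0.230 and 3.33 within the knock-out.

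Col8a1, the main chain of the type VIII network of vessel walls, stood at 403, 427 and 412 CPM in the knock-out, against 706, 824 and 683 CPM in the wild type. It was lower to a like degree in the 3 knock-out libraries (log2 fold change -0.83 ± 0.10, edgeR adjusted p = 0.00413), and the call held whichever library was left out (highest adjusted p 0.0289). Col8a2, its partner, had 47, 14 and 11 reads in the knock-out, against 6, 8 and 12 in the wild type (edgeR adjusted p = 0.128). Col10a1, the network collagen of hypertrophic cartilage, was not tested: it had 0 reads in the knock-out, against 10, 7 and 18 in the wild type, at least 10.8-fold lower at equal depth with 3 reads over the group as the floor.

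Of the 6 chains of collagen VI, 1 was called higher and 3 lower, or 66.7%, beside 27.8% of all tested genes. The 3 called lower had few knock-out reads and passed the read filter through the wild type alone. Within the tested set they could hardly come out other than lower. Its common molecule needs Col6a1, Col6a2 and Col6a3, and Col6a4, Col6a5 and Col6a6 encode chains related to Col6a3. Col6a3 stood at 10.6, 302 and 367 CPM in the knock-out, against 2.32, 4.77 and 3.75 CPM in the wild type (log2 fold change 5.96 ± 1.33, edgeR adjusted p = 0.0236). Library 1 was 2.93 times the wild-type mean and libraries 2 and 3 were 83.6 and 101 times that mean. Its call was lost on leaving out knock-out library 2, knock-out library 3 or any wild-type library (adjusted p 0.0636 to 0.102), and with the title number after p as a covariate (log2 fold change 4.01, adjusted p = 0.101). Intron reads of Col6a3 numbered 11, 635 and 702 in the knock-out, against 8, 8 and 5 in the wild type.

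Col6a1 stood at 802, 1866 and 2037 CPM in the knock-out, against 1118, 1031 and 1196 CPM in the wild type (log2 fold change 0.49 ± 0.34, edgeR adjusted p = 0.320). Col6a2 stood at 491, 1375 and 1562 CPM in the knock-out, against 627, 575 and 676 CPM in the wild type (0.87 ± 0.41, edgeR adjusted p = 0.167). For both, library 1 was below the wild type and libraries 2 and 3 above it. The ratio of Col6a3 to Col6a1 RPKM was 0.00500, 0.0612 and 0.0680 in the knock-out, against 0.000783, 0.00175 and 0.00119 in the wild type, so Col6a3 remained the scarcest of the 3 chains in each library.

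Col6a4, Col6a5 and Col6a6 lie side by side on the minus strand of chromosome 9, between 105687809 and 106096783 (GRCm38), and each had at most 10 reads over the 3 knock-out libraries. Col6a4 had 9, 1 and 0 reads in the knock-out, against 129, 33 and 123 in the wild type (log2 fold change -4.75 ± 1.13, edgeR adjusted p = 0.0282). Col6a5 had 0, 1 and 5 reads in the knock-out, against 52, 311 and 114 in the wild type (-6.04 ± 1.14, edgeR adjusted p = 0.0147). Col6a6 had 3, 0 and 1 reads in the knock-out, against 26, 246 and 44 in the wild type (-6.02 ± 1.28, edgeR adjusted p = 0.0208). The genotypes did not overlap for any of the 3 genes. Wild-type library 5 was the highest of the 6 for Col6a5 and Col6a6 and the lowest wild-type library for Col6a4. Without wild-type library 5 the log2 fold changes were -5.19 for Col6a5 (adjusted p = 0.0505) and -4.55 for Col6a6 (0.0421). The calls were also lost without knock-out library 2 (0.0933, 0.0707 and 0.0610 for Col6a4, Col6a6 and Col6a5) and without wild-type library 6 (0.0975, 0.0509 and 0.0527). Those of Col6a4 and Col6a6 were lost without knock-out library 3 (0.0676 and 0.0768), and that of Col6a4 without wild-type library 4 (0.102). Values moved to -7.12 for Col6a4 and -7.19 for Col6a6 without knock-out library 1, and to -7.91 for Col6a5 without knock-out library 3.

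Of the 9 FACIT chains, 4 were tested, with 0 called higher and 1 lower, or 25%, beside 27.8% of all tested genes. That chain was also the only tested FACIT chain with an unadjusted p under 0.05, beside 5340 of all 12660 tested genes. Col12a1, which coats type I fibrils, stood at 20.0, 24.7 and 28.0 CPM in the knock-out, against 80.2, 71.9 and 74.0 CPM in the wild type. All 3 knock-out libraries were lower by a like factor, and the chain had the smallest adjusted p of the collagens (log2 fold change -1.64 ± 0.14, edgeR adjusted p = 0.00145; highest 0.0150 with a library left out). Its relative Col14a1 stood at 44.9, 108 and 91.6 CPM in the knock-out, against 95.6, 29.9 and 105 CPM in the wild type, with wild-type library 5 lowest (0.08 ± 0.54, edgeR adjusted p = 0.922). Col16a1, a FACIT chain of many connective tissues, stood at 132, 231 and 249 CPM in the knock-out, against 245, 256 and 245 CPM in the wild type (edgeR adjusted p = 0.394). Col20a1 stood between 4.24 and 6.02 CPM in the knock-out, against 5.31 to 5.84 CPM in the wild type. Col19a1, Col22a1, Col9a2 and Col9a3 had between 0 and 20 reads in each library.

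Among the multiplexins, basement membrane collagens that carry heparan or chondroitin sulphate chains, Col15a1 was called higher. It stood at 1.86, 113 and 133 CPM in the knock-out, against 0.178, 1.77 and 1.02 CPM in the wild type (log2 fold change 6.36 ± 1.64, edgeR adjusted p = 0.0361). Library 1 lay just above the highest wild-type library, 5, with 43 reads in each of these libraries, and libraries 2 and 3 had 2400 and 2502. Wild-type library 4 had 4 reads, too few for the wild type to pass the read filter by itself. The call was again lost on leaving out knock-out library 2, knock-out library 3 or any wild-type library (adjusted p 0.0904 to 0.128), and its value moved to 7.11 without wild-type library 5. With the title number after p as a covariate it was 4.15 (adjusted p = 0.152), and with the last title number 5.42 (0.0742). Col18a1, whose end fragment is endostatin, stood at 45.4, 27.3 and 29.8 CPM in the knock-out, against 21.5, 60.0 and 21.9 CPM in the wild type (-0.01 ± 0.46, edgeR adjusted p = 0.984). Knock-out library 1 and wild-type library 5 were the highest of their genotypes for Col18a1. Without wild-type library 5 the log2 fold change was 0.65 (adjusted p = 0.155).

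Of the remaining chains, Col28a1, a collagen of peripheral nerve in mice, was high in knock-out library 1 and low in libraries 2 and 3. It stood at 144, 4.67 and 6.17 CPM in the knock-out, against 153, 123 and 138 CPM in the wild type (log2 fold change -1.42 ± 1.28, edgeR adjusted p = 0.436). Library 1 lay within the wild-type range and libraries 2 and 3 far below it, with 60, 1 and 0 intron reads in the knock-out, against 106, 91 and 103 in the wild type. Without knock-out library 1 the log2 fold change was -4.68 (edgeR adjusted p = 2.48e-06), and with the title number after p or the last title number as a covariate it was -2.19 and -3.27 (adjusted p = 0.214 and 0.110). Beside it, the Schwann cell marker Sox10 was at 0 in each library. Col7a1, the chain of anchoring fibrils under epithelia, stood at 1.43, 1.65 and 1.06 CPM in the knock-out, against 3.92, 2.10 and 3.71 CPM in the wild type (-1.23 ± 0.34, edgeR adjusted p = 0.0455). Leaving out any library but knock-out library 1 and wild-type library 5 ended its call (adjusted p 0.0958 to 0.165), as did testing without a filter (0.0584) or with the title number after p as a covariate (0.0690). Of the 4 transmembrane chains only Col23a1 was tested, with 46, 31 and 38 reads in the knock-out, against 24, 29 and 25 in the wild type (edgeR adjusted p = 0.106).

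The position of knock-out library 1 was counted over the 34 tested chains. For 7 chains the 3 knock-out libraries all lay above the wild type, and for 13 all lay below it. These are the 20 chains without overlap, beside 49.7% of all tested genes. The positions that follow were not counted over all genes. For 6 chains (Col1a1, Col3a1, Col4a5, Col5a3, Col6a1 and Col6a2) library 1 lay below the wild type and libraries 2 and 3 above it, and for Col20a1 the reverse held. For Col1a2 and Col2a1 library 1 lay within the wild-type range and libraries 2 and 3 above, and for Col28a1 within and below. Knock-out library 1 differed from the mean of libraries 2 and 3 by more than 1 log2 unit for 16 of the 34 chains (47.1%), against 14.3% of all tested genes. Wild-type library 5 differed that much from libraries 4 and 6 for 8 chains (23.5%), against 2.57% of all tested genes. The 2 contrasts, which separate title numbers 1 and 2, had the same sign for 16 of 34 chains and for 52.0% of all genes. Without knock-out library 1, 13 chains were called higher and 14 lower, and 66.2% of all tested genes were called.

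**Figure D5:**
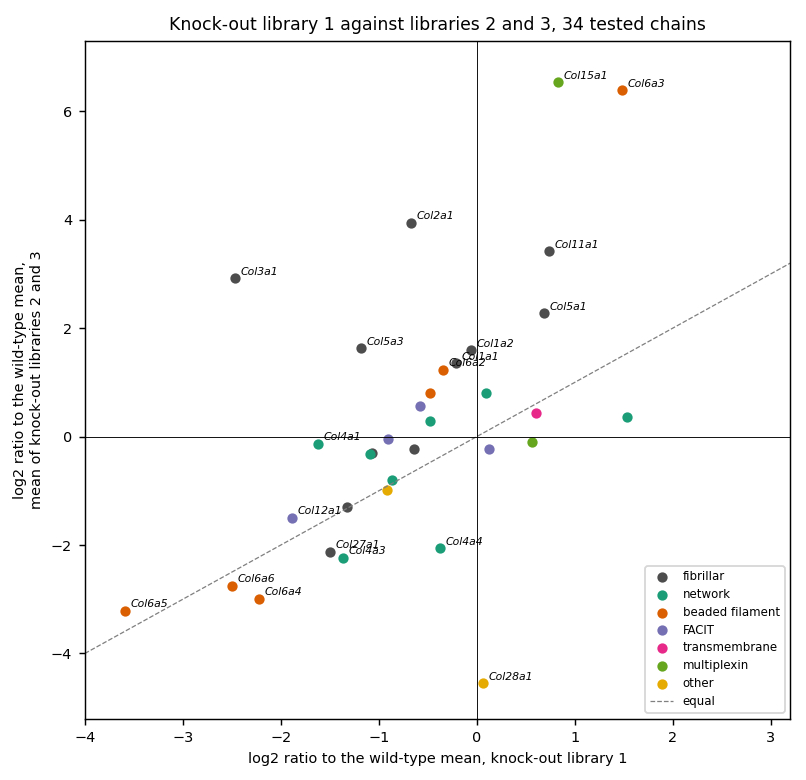
Log2 ratio to the wild-type mean in knock-out library 1 (horizontal axis) against the mean of knock-out libraries 2 and 3 (vertical axis) for the 34 tested chains, coloured by class, with a dashed line at equality. Col3a1 lies at -2.47 in library 1, against 2.81 and 3.03 in libraries 2 and 3, and Col28a1 at 0.07, against -4.74 and -4.37.

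Intron reads, which come mostly from unspliced RNA, reached 100 in total for 20 chains. Scaled to each library's intron reads, the knock-out to wild-type ratio had the same sign as the exon fold change for 16 of them and the opposite sign for Col4a5, Col6a1, Col18a1 and Col20a1, none of which was called. The log2 ratio was 6.08 for Col6a3, 2.24 for Col3a1, 1.28 for Col5a1 and -1.33 for Col4a3. These values carry no test. Col4a1 and Col4a2 are listed with the same intron reads in the knock-out libraries (40, 78 and 77), against 119, 127 and 104 for Col4a1 and 187, 189 and 175 for Col4a2 in the wild type.

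Genes that act on collagen were taken from 6 lists by step. Of 57 tested members, 11 were called higher and 6 lower, which is 29.8% of them beside 27.8% of all tested genes, and the median log2 fold change was 0.21, beside 0.02 over all tested genes. By step, the share called was 22.2% in chain modification and folding, 12.5% in secretion and 14.3% in propeptide processing. It was 40% in cross-linking, 58.3% in receptors and uptake and 28.6% in degradation. In chain modification and folding 2 of 18 were higher and 2 lower. P3h4, which with a lysyl hydroxylase modifies the helix, fell to 174, 156 and 161 CPM in the knock-out, against 396, 426 and 380 CPM in the wild type (log2 fold change -1.29 ± 0.08, edgeR adjusted p = 7.62e-04). Plod2, the lysyl hydroxylase of the chain ends, fell as well (-0.94 ± 0.20, edgeR adjusted p = 0.0216). P4ha1, a subunit of prolyl 4-hydroxylase, and P3h2, a prolyl 3-hydroxylase, were higher (0.91 ± 0.26 and 2.34 ± 0.68, edgeR adjusted p = 0.0450 and 0.0494). With any library but knock-out library 1 left out, the calls of Plod2, P4ha1 and P3h2 were lost, with adjusted p up to 0.0872, 0.139 and 0.159. With the title number after p as a covariate P4ha1 (0.70, adjusted p = 0.0845) and P3h2 (1.47, adjusted p = 0.149) did not pass, and P3h2 was also lost with the last title number (0.0519), with total counts (0.0534) and with no filter (0.0521).

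Among 8 secretion genes Mia3, the cargo receptor that loads procollagen into transport carriers, was the 1 called (0.28 ± 0.08, edgeR adjusted p = 0.0450; up to 0.158 with any library but knock-out library 1 left out). Its call was also lost when scaled to total counts (0.18, adjusted p = 0.211), with no filter (0.0628) and with at least 50 reads in 3 libraries (0.0592). Adamts2, the protease that cuts the amino-terminal propeptide, stood at 295, 342 and 370 CPM in the knock-out, against 184, 167 and 174 CPM in the wild type, the 1 called of 7 tested processing genes (0.94 ± 0.11, edgeR adjusted p = 0.00357). Of 5 cross-linking enzymes, Loxl4 was higher at 32.9, 29.8 and 28.1 CPM in the knock-out, against 8.43, 10.8 and 7.505 CPM in the wild type (1.76 ± 0.16, edgeR adjusted p = 0.00198). Loxl2 was higher too, at 67.2, 346 and 358 CPM in the knock-out, against 44.1, 56.2 and 46.2 CPM in the wild type (2.40 ± 0.62, edgeR adjusted p = 0.0358). Library 1 lay near the wild type for Loxl2 and with libraries 2 and 3 for Loxl4 and Adamts2, and the Loxl2 call was lost with any library but knock-out library 1 left out (up to 0.130) and with the title number after p (1.68, adjusted p = 0.124) or the last title number (2.12, adjusted p = 0.0531) as a covariate.

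Of 12 tested receptors, 4 were called higher and 3 lower, or 58.3%, beside 27.8% of all tested genes. Cspg4, a proteoglycan receptor for collagen VI, stood at 36.8, 11.8 and 13.2 CPM in the knock-out, against 0.357, 0.452 and 0.510 CPM in the wild type (log2 fold change 5.54 ± 0.60, edgeR adjusted p = 0.00316; 4.81 without knock-out library 1). Its wild-type levels were near the floor, and library 4 held too few reads for the wild type to pass the read filter by itself. Itgb1, the beta subunit common to the collagen integrins, and Antxr1, an anthrax toxin receptor that binds collagen, were higher by 0.68 ± 0.08 and 0.86 ± 0.11 on the log2 scale (edgeR adjusted p = 0.00430 and 0.00518). Itga2, the alpha subunit of a receptor for type I collagen, fell to 25.3, 11.2 and 7.87 CPM in the knock-out, against 122, 145 and 125 CPM in the wild type (-3.14 ± 0.45, edgeR adjusted p = 0.00665; -3.77 without knock-out library 1). Itga11, the alpha subunit of another receptor for fibrillar collagen, fell to 17.01, 8.96 and 8.09 CPM in the knock-out, against 37.1, 37.6 and 41.3 CPM in the wild type (-1.76 ± 0.30, edgeR adjusted p = 0.0106). Ddr1, a collagen-activated receptor kinase, was lower (-0.77 ± 0.19, edgeR adjusted p = 0.0323; up to 0.112 with any library but knock-out library 1 left out).

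Of 7 tested degradation genes, Mmp2, a gelatinase, was higher at 314, 449 and 475 CPM in the knock-out, against 82.6, 27.2 and 99.0 CPM in the wild type (log2 fold change 2.57 ± 0.49, edgeR adjusted p = 0.0154). The call was lost on leaving out knock-out library 2, knock-out library 3 or wild-type library 4 (up to 0.0656). Mmp13, a collagenase, was lower at 0.995, 1.74 and 1.44 CPM in the knock-out, against 11.2, 48.5 and 11.5 CPM in the wild type (-4.09 ± 0.73, edgeR adjusted p = 0.0126). Wild-type library 5 was highest for Mmp13, whose value was -3.02 without that library and whose adjusted p was 0.0528 without knock-out library 3. It was the lowest wild-type library for Mmp2.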

How the data were processed

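RNA was measured in 6 libraries, 3 per genotype, with genotypes taken from the labels. The authors deposited whole-number counts of exon, exon junction, unique exon and intron reads per gene and library, and an RPKM value made from them, per the file headers. Coordinates are those of GRCm38 (mm10), the build named in the submitters' processing notes. For the aligner and the counter, the sources used here give no name. The library kit keeps strand, but whether counting used it is not given either, so overlapping genes such as Col4a1 and Col4a2 are uncertain. All 44 chains had the same coordinates in GENCODE M21, and at least 99.4% of exon reads of each chain with over 100 reads were unique.

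The test on exon counts of all genes was that of edgeR 4.0.16 under R 4.3.3 (filterByExpr with a minimum count of 10, TMM, quasi-likelihood F test, Benjamini-Hochberg adjustment at 0.05, genotype as the only term). CPM are counts over TMM-adjusted library sizes. Errors of fold changes are standard errors. Log2 ratios of single libraries add 0.5 CPM. RPKM served for levels between genes and had no test. Where a genotype had 0 reads, a bound was computed with 3 reads over its libraries. Intervals and bounds cover counting error only. The test was checked on simulated data. Members, lists and tests were chosen with earlier results of these data known. Chains at 1 RPKM or more in a genotype, or called, were named, others by range; of each step's list, up to 3 called in each direction of smallest p. The summed Schwann cell markers are not reported here. Promoters are RefSeq windows of GRCm38.p6. Alternatives were DESeq2 1.42.0, other scalings and filters, unique reads, summed pairs, title numbers and leaving out each library. Plots used matplotlib 3.10.9 in Python 3.11.15.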

Additional observations from a re-analysis of the deposited data

How the results depend on the processing

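The calls rest on few libraries. Main counts were 4 chains higher and 9 lower, 11 genes that act on collagen higher and 6 lower, and 3524 genes in all. With unique reads, the last title number as a covariate, no filter, at least 50 reads in 3 libraries, total counts or DESeq2's size factors, these counts stayed within 1.5 times. DESeq2's own test gave 8 chains and 17 acting genes higher, and 4654 genes called in all. With the near-identical pairs summed, edgeR called 0 chains and 0 acting genes in either direction (2 chains higher and 8 lower, 8 acting genes higher and 6 lower, at an unadjusted p under 0.05) and 17 genes in all, from 2 samples per genotype. For the alternatives, counts at an unadjusted p were not made over all genes. With the title number after p as a covariate, 1 chain (Col5a1) was higher, Col11a1, Col6a3, Col15a1 and Col7a1 did not pass, and Col4a2 did. With the last title number Col2a1, Col4a4 and Col4a6 passed and Col15a1 did not. With the 4 libraries of titles ending in 2, the near-identical pairs, 14 chains were higher and 14 lower, 33 acting genes higher and 16 lower, and 9286 genes in all. Leaving out each library gave 0 to 13 chains higher (4 to 6 at an unadjusted p under 0.05 where edgeR called 0), 3 to 14 lower, 6 to 29 acting genes higher, 3 to 15 lower, and 1120 to 8486 genes, highest without knock-out library 1. Of 538 values of single chains under 16 alternatives, 18 changed sign, for 4 chains that were not called. Log2 fold changes under total counts, the p number and titles ending in 2 were -0.0347, -0.28 and -0.0221 for Col14a1. They were -0.0349 and -0.11 for Col4a5 under total counts and the p number, and -0.0462 with pairs summed. They were 0.27, 0.12 and 0.38 for Col18a1 under the p number, the last number and titles ending in 2, where edgeR's adjusted p was 3.76e-04. Leaving out single libraries gave -0.31 to 0.37 for Col14a1, -0.0604 to 0.28 for Col4a5, -0.29 to 0.65 for Col18a1 and -0.26 to 0.00659 for Col20a1. Where a count moved, the cause was not tested. No paired analysis was possible because the libraries are numbered 1 to 6 with no number in both genotypes; the title numbers found in both genotypes put knock-out libraries 2 and 3 under the same number, so they give no pair for each library, and were fitted as covariates, as above. Depth limits Col24a1, Col6a4, Col6a5 and Col6a6, with at most 10 reads each over the knock-out libraries. These chains passed the read filter through the wild type alone. For Col15a1 and Cspg4, both called higher, the wild type did not pass that filter by itself.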
